A study of Mus musculus with 8 samples.

Results

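The genes described here are Trp53, which encodes the transcription factor p53, and 9 genes that p53 is known to switch on: Cdkn1a, Mdm2, Ccng1, Trp53inp1, Bbc3, Sesn2, Phlda3, Zmat3 and Bax. They were chosen by name as textbook members of the p53 pathway, with earlier results of these data known, and are 10 of the 24542 genes in each table. Their shares beside those of all genes are therefore descriptions. Expression was measured by RNA-seq of total RNA from TX1072, a female hybrid mouse ESC line in which one set of chromosomes comes from B6 (C57BL/6) and the other from Cast (castaneus), so that reads over sequence differences can be assigned to an allele. In this line a doxycycline (DOX) inducible promoter drives Xist from the B6 X chromosome. There were 4 groups of 2 samples: Hdac3+/+ (TX1072 itself) and Hdac3-/-, each collected without DOX (0 hr) and once it had been given for 24 hr at 1 µg/ml. Hdac3 encodes a histone deacetylase, and the Hdac3-/- cells are 2 clones made from TX1072 by CRISPR/Cas9. All cells grew on gelatin with serum, LIF and the 2i inhibitors. The Hdac3+/+ samples are duplicates of a single line, whereas the Hdac3-/- samples are described by the study as separate clones, so a difference between the genotypes is a difference between 1 line and 2 clones and includes whatever else sets those clones apart. The labels do not say whether duplicates were separate cultures, and p-values measure only the spread between these samples.

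p53 is kept low in unstressed cells because the ligase Mdm2 binds it and marks it for degradation. Damage or other stress frees p53, which then binds DNA and raises transcription of genes that stop the cell cycle, start apoptosis or change metabolism, and of Mdm2 itself, which closes a feedback loop. p53 activity is controlled mainly at the protein, so its output is often read from the mRNA of its targets and not from Trp53 mRNA. ESCs carry abundant p53 and express several of these targets without added damage.

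p53 binds a palindromic half-site, usually as a pair of half-sites side by side. Such sites in the promoters are shown to place the expression values beside the sequence that defines the family. RefSeq promoter windows (GRCm38.p6, from 250 bases before to 50 bases after a start) were matched for 8 of the 10 genes, in 11 windows, and Trp53inp1 and Zmat3 were not matched. The p53 consensus half-site of 10 bases, searched by its name's standard degenerate letters, is its own reverse complement, so a match is the same on both strands. It was present without mismatch in 5 of the 8 genes, against 9.55% of all 27025 genes with a window (8.36% of all 32851 windows). In 3 genes, Cdkn1a, Ccng1 and Bax, a full site was found, that is 2 half-sites with at most 1 base between them and at most 2 mismatches in 20 bases, against 0.807% of all genes with a window (0.682% of windows). The fixed C and G of each half-site also had to match exactly. The full site of Cdkn1a had 1 mismatch and began 51 bases upstream of the start, that of Ccng1 had 1 mismatch and began 195 bases upstream, and that of Bax had 2 mismatches and began 201 bases upstream. In the 120 bases printed for each gene, 5′ to 3′ on the gene's strand, capitals mark a half-site or full site. The Mdm2 and Trp53 windows held a half-site and no full site, and the windows of Bbc3, Sesn2 and Phlda3 held neither. A match is a description of the letters and not evidence of binding in these cells. Sequence outside the windows was not searched, so a window without a site does not mean a gene without one.

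Cdkn1a, chr17:29090859-29090978 (+): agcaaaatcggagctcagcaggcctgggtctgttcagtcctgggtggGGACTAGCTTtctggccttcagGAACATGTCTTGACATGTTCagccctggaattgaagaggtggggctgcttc

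Ccng1, chr11:40755412-40755531 (-): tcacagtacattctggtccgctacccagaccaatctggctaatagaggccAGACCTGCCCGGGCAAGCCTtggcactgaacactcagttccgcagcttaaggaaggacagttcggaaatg

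Bax, chr7:45467029-45467148 (-): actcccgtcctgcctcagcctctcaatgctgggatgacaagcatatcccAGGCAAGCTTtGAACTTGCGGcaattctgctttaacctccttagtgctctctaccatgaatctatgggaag

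Mdm2, chr10:117710875-117710994 (-): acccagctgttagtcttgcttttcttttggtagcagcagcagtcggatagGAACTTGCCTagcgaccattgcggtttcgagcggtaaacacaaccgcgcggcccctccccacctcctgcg

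Trp53, chr11:69580234-69580353 (+): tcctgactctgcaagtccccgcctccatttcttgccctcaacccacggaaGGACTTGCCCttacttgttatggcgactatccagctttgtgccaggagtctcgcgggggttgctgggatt

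The tables held 6940375 to 17125156 reads on genes per sample, and 30.05% to 31.59% of them were assigned to an allele. Hdac3 fell from 41.3 ± 2.68 CPM (reads scaled to the total of the library; SD, n = 2) in Hdac3+/+ to 6.47 ± 1.06 CPM (SD, n = 2) in Hdac3-/- at 0 hr, and Xist rose from 8.95 ± 2.40 CPM to 1726 ± 15.2 CPM (SD, n = 2 each) with DOX in Hdac3+/+, in the direction their labels state. Hdac3-/- replicate 2 stood apart on chromosome 16, where its median d-score (the B6 share of allelic reads) was 0.5 at 0 hr, an even split. The median was 0.333 in Hdac3-/- replicate 1 and 0.341 and 0.333 in the Hdac3+/+ samples, so the skew to Cast lay in the parental line and replicate 1. Expression on this chromosome in Hdac3-/- replicate 2 was lower than in Hdac3+/+ by 0.47 on the log2 scale relative to all genes. None of the 10 genes lies on chromosome 16, and on their 7 chromosomes the median d-score ran from 0.485 to 0.519. The 8 ESC markers summed to 4981 to 5149 CPM in Hdac3+/+ and 5448 to 5806 CPM in Hdac3-/- at 0 hr. The 6 fibroblast markers summed to 42.4 to 57.0 CPM and 31.1 to 42.2 CPM, with Postn at 0 in 7 of 8 libraries and Twist2 in 6. The 5 endoderm markers summed to 5.48 to 6.53 CPM and 2.69 to 3.90 CPM, and the 5 trophoblast markers to 26.5 to 41.4 CPM and 27.5 to 28.6 CPM. The ESC sum was thus higher and the fibroblast and endoderm sums lower in every Hdac3-/- sample at 0 hr, and their part in the results was not tested. Not all markers moved with the sum of their list. At 0 hr Pdgfra of the fibroblast list had 1.17 and 1.10 CPM in Hdac3+/+ and 2.51 and 2.99 CPM in Hdac3-/-. Gata6 of the endoderm list had 0.466 and 0.506 CPM against 0.876 and 0.995 CPM. Esrrb of the ESC list was lower, with 698 and 685 CPM against 619 and 673 CPM. Of the 8 ESC markers, 2 rose and 6 did not pass at 0 hr, where 6.33% of all genes tested rose and 7.24% fell. Nanog had 984 ± 30.4 and 1488 ± 171 CPM and Zfp42 227 ± 16.3 and 347 ± 51.2 CPM (SD, n = 2 each; adjusted p = 0.00486 and 0.00858, edgeR), and both rose at 24 hr as well (log2 fold changes of 0.55 and 0.45). Tfcp2l1, which did not pass, had 1353 ± 1.85 and 1229 ± 85.9 CPM (SD, n = 2 each). Of the markers of other cell types tested at 0 hr, Sox7 of the endoderm list fell from 2.74 ± 0.413 to 0.831 ± 0.350 CPM (SD, n = 2 each; adjusted p = 0.0469, edgeR). Gata4 (1.57 ± 0.310 and 1.36 ± 0.430 CPM), Col1a1 of the fibroblast list (24.9 ± 4.28 and 19.2 ± 4.11 CPM) and Eomes of the trophoblast list (7.88 ± 1.6 and 12.6 ± 1.73 CPM; SD, n = 2 each) did not pass. In bulk RNA, fewer cells of a type and less RNA per cell cannot be told apart.

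Before DOX, most of the p53 targets were higher in Hdac3-/- than in Hdac3+/+. Mdm2, Ccng1, Trp53inp1, Bbc3, Sesn2 and Zmat3 rose, 6 of the 10 genes, with folds from 1.36 (Zmat3) to 2.26 (Trp53inp1), and 0 of the 10 fell. Among all 13226 genes tested, 6.33% rose and 7.24% fell. Trp53 itself did not pass the test and was lower in both clones. The median log2 fold change of the 10 genes was 0.46, against 0.00 for all genes tested. A log2 fold change above 1 together with the threshold was reached by 3 of the 10 (Trp53inp1, Bbc3 and Mdm2), against 2.59% of all genes. Both Hdac3-/- samples lay above both Hdac3+/+ samples for 9 of the 10 genes, where 23.3% of all genes did, and below them for Trp53. Fold changes and adjusted p-values here and throughout are from edgeR's quasi-likelihood test after TMM scaling, with Benjamini-Hochberg adjustment over all genes tested and a threshold of 0.05. Without TMM the calls over all genes split into 640 higher and 1174 lower at 0 hr, where TMM gave 837 and 958, and the median of all genes moved to -0.07. The 6 genes stayed higher in direction, but Zmat3 no longer passed (adjusted p = 0.0504).

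**Figure D1:**
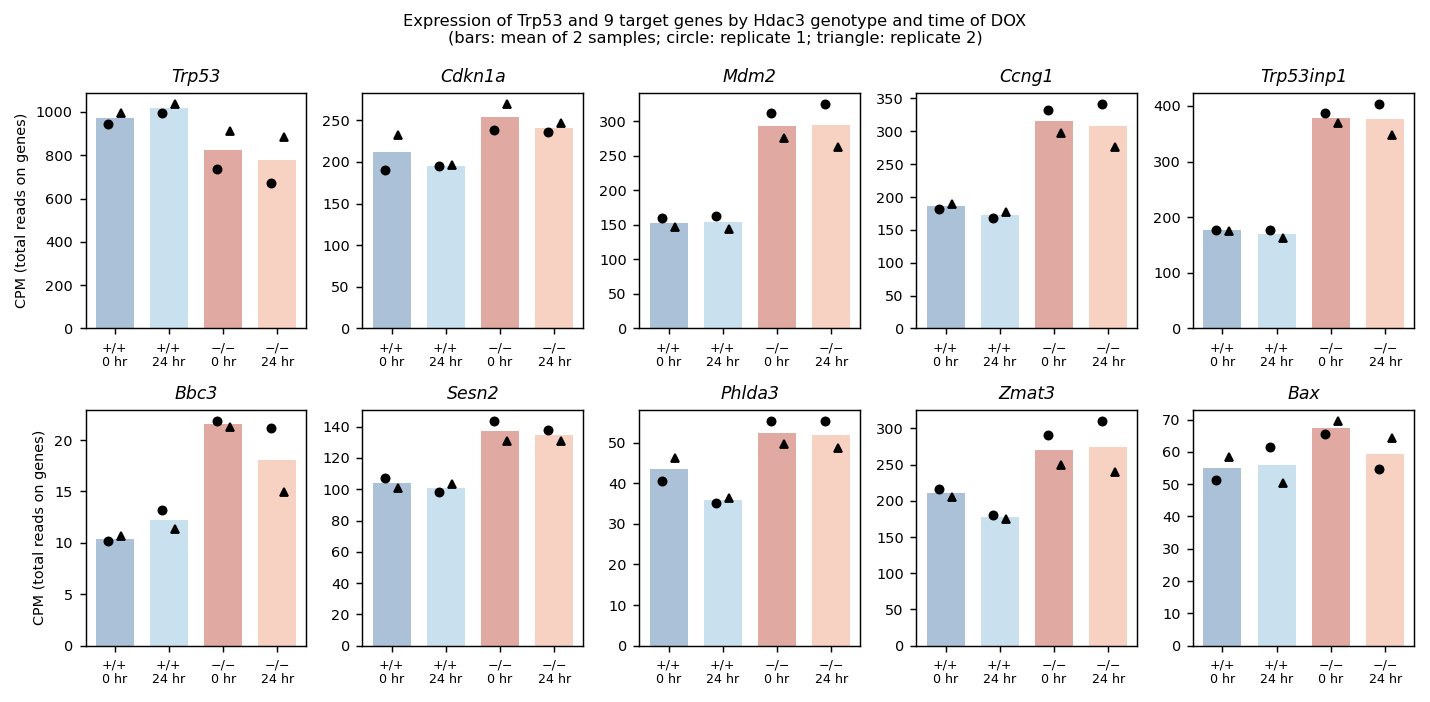
CPM of each gene (vertical axes, from 0, each gene with its own scale) in the 4 groups; bars are means of 2 samples, circles replicate 1 and triangles replicate 2. All 4 Hdac3-/- samples lie above all 4 Hdac3+/+ samples for 8 of the 9 targets, by little for Cdkn1a (235.6 against 232.2 CPM) and Phlda3 (48.7 against 46.3 CPM). The samples overlap for Bax, and for Trp53 all 4 Hdac3-/- samples lie below. The share of all genes that separate in this way was not computed.

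Trp53 was the most abundant transcript of the set. At 0 hr it had 946 and 995 CPM in Hdac3+/+ and 735 and 913 CPM in Hdac3-/-, in the order of replicates 1 and 2. Both clones were below the parental samples, replicate 1 further than replicate 2. The log2 fold change of -0.16 ± 0.12 (SE) did not pass edgeR's quasi-likelihood test (adjusted p = 0.411). Without Hdac3-/- replicate 2 it was -0.33, and without Hdac3-/- replicate 1 it was -0.003, so the estimate depended on which clone was left out. With 1 clone left in a fit of the samples at 0 hr, the spread between clones is not measured. Only effect sizes are therefore given for such fits. A processed pseudogene, Trp53-ps, is annotated on chromosome 17, and reads could be shared with it in the counting, which makes the level of Trp53 less certain. Trp53 itself lies on chromosome 11 (69580359 to 69591873, plus strand, GRCm38).

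Mdm2, Ccng1 and Trp53inp1 encode proteins that act back on p53, and all 3 rose. Mdm2, the ligase that removes p53, had 159 and 147 CPM in Hdac3+/+ and 312 and 275 CPM in Hdac3-/- at 0 hr. Its log2 fold change was 1.02 ± 0.10 (SE; adjusted p = 0.00144, edgeR). Ccng1, cyclin G1, which brings the phosphatase PP2A to Mdm2, had 183 and 190 CPM against 332 and 297 CPM. The log2 fold change of Ccng1 was 0.84 ± 0.10 (SE; adjusted p = 0.00241, edgeR). Trp53inp1, a nuclear protein that promotes p53 phosphorylation, had 178 and 175 CPM against 387 and 369 CPM, the largest change of the set. For Trp53inp1 the log2 fold change was 1.18 ± 0.09 (SE; adjusted p = 0.000474, edgeR). In these 3 genes the lowest clone exceeded the highest parental sample by more than the duplicates differed. Over the 12 alternatives at 0 hr the log2 fold change ran from 0.93 to 1.10 for Mdm2. It ran from 0.76 to 0.91 for Ccng1 and from 1.11 to 1.21 for Trp53inp1. Mdm2 lies on chromosome 10 (117688875 to 117710758, minus strand), Ccng1 on chromosome 11 (40748552 to 40755311, minus strand) and Trp53inp1 on chromosome 4 (11156431 to 11174379, plus strand; GRCm38).

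Cdkn1a encodes p21, the inhibitor of cyclin-dependent kinases through which p53 arrests the cell cycle. It had 191 and 232 CPM in Hdac3+/+ and 239 and 270 CPM in Hdac3-/- at 0 hr. The lowest clone was only slightly above the highest parental sample, and the parental duplicates differed by more than that gap. The log2 fold change of 0.34 ± 0.13 (SE) did not pass (adjusted p = 0.116, edgeR). When a sample was left out, the log2 fold change was 0.43 without Hdac3-/- replicate 1 and 0.25 without Hdac3-/- replicate 2. It was 0.19 without Hdac3+/+ replicate 1 and 0.51 without Hdac3+/+ replicate 2. Cdkn1a, with a full p53 site just upstream of its start, had a log2 fold change of 0.34. Mdm2, whose window held a half-site only, had 1.02, and sequence outside its window was not searched for sites. The difference between the 2 genes was not tested. Cdkn1a lies on chromosome 17 (29090976 to 29100727, plus strand, GRCm38).

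Of the apoptosis genes, Bbc3 rose and Bax did not pass. Bbc3 encodes Puma, a BH3-only protein that opens the way to cell death by binding the Bcl-2 family. It had 10.2 and 10.6 CPM in Hdac3+/+, from 131 and 126 reads, and 21.8 and 21.3 CPM in Hdac3-/-, from 374 and 257 reads. The groups were far apart compared with their duplicates, and the log2 fold change was 1.13 ± 0.16 (SE; adjusted p = 0.00526, edgeR). Bax, the pore-forming protein downstream of Puma, had 51.4 and 58.5 CPM against 65.6 and 69.5 CPM. Its groups did not overlap, but its log2 fold change of 0.37 ± 0.12 (SE) did not pass (adjusted p = 0.0822, edgeR). The value for Bax was 0.42 without Hdac3-/- replicate 1 and 0.26 without Hdac3+/+ replicate 1. Both genes are on chromosome 7, Bbc3 at 16308393 to 16318205 on the plus strand and Bax at 45461697 to 45466898 on the minus strand (GRCm38).

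The targets with roles in growth signalling and RNA had smaller fold changes. Sesn2, a sestrin that restrains mTORC1 and is also known as a target of the stress factor ATF4, had 107 and 101 CPM in Hdac3+/+ and 143 and 131 CPM in Hdac3-/- at 0 hr. Its log2 fold change was 0.48 ± 0.10 (SE; adjusted p = 0.0187, edgeR). Zmat3, a zinc finger protein that binds RNA and influences splicing, had 216 and 205 CPM against 291 and 249 CPM. Zmat3 had a log2 fold change of 0.44 ± 0.10 (SE; adjusted p = 0.0287, edgeR). Phlda3, a PH domain protein that keeps Akt from the membrane, had 40.6 and 46.3 CPM against 55.3 and 49.6 CPM. Its log2 fold change of 0.35 ± 0.13 (SE) did not pass (adjusted p = 0.120, edgeR), although its groups did not overlap. The calls of Sesn2 and Zmat3 were lost when a parental sample was left out. For Sesn2 the adjusted p was 0.112 without Hdac3+/+ replicate 1 and 0.152 without replicate 2, and for Zmat3 0.139 and 0.170. The log2 fold change of Phlda3 was 0.42 without Hdac3-/- replicate 2 and 0.24 without Hdac3+/+ replicate 1. Sesn2 lies on chromosome 4 (132492032 to 132510501, minus strand), Zmat3 on chromosome 3 (32334792 to 32366014, minus strand) and Phlda3 on chromosome 1 (135766119 to 135769136, plus strand; GRCm38).

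Levels can be compared between genes only per length. In TPM, which scales reads by transcript length and library, computed from the counts and GENCODE exon lengths, Trp53 was at 868 ± 9.27 in Hdac3+/+ at 0 hr, Cdkn1a at 215 ± 24.4 and Ccng1 at 192 ± 0.347 (SD, n = 2 each). Cdkn1a and Ccng1 did not differ beyond the spread of Cdkn1a. Bax was at 126 ± 8.44 TPM, and Mdm2 (109 ± 8.99), Sesn2 (109 ± 7.61), Phlda3 (101 ± 6.87) and Trp53inp1 (98.7 ± 3.38) followed as neighbours within about their SD (n = 2 each). Zmat3 was at 66.7 ± 4.22 TPM and Bbc3 was lowest, at 17.7 ± 0.0896 TPM (SD, n = 2 each). In Hdac3-/- at 0 hr the order of the levels was different. Ccng1, at 322 ± 27 TPM, stood above Cdkn1a, at 257 ± 20.8 TPM, and Trp53inp1 (210 ± 8.25) and Mdm2 (208 ± 19.2) stood above Bax (154 ± 5.57; SD, n = 2 each). Trp53 remained first, at 731 ± 108 TPM, and Bbc3 last, at 36.5 ± 0.807 TPM (SD, n = 2 each).

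After 24 hr of DOX the same comparison gave 6 of the 10 genes higher in Hdac3-/- and 0 lower, where 6.16% of all 13807 genes rose and 6.78% fell. The genes were Mdm2, Ccng1, Trp53inp1, Sesn2, Phlda3 and Zmat3, that is, Phlda3 in place of Bbc3. A log2 fold change above 1 together with the threshold was reached by 1 of the 10 (Trp53inp1), against 321 of the 13807 genes. The median log2 fold change of the 10 was 0.58, against 0.01 for all genes tested. Both clones lay above both parental samples for 8 of the 10 genes, where 25.8% of all genes did, below them for Trp53, and overlapped with them for Bax. These samples are different libraries from those at 0 hr, but they come from the same line and the same clones.

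Mdm2 had 163 and 144 CPM in Hdac3+/+ and 325 and 263 CPM in Hdac3-/- at 24 hr, a log2 fold change of 0.97 ± 0.12 (SE; adjusted p = 0.00153, edgeR). Ccng1 had 169 and 178 CPM against 342 and 276 CPM, a log2 fold change of 0.87 ± 0.11 (SE; adjusted p = 0.00190, edgeR). Trp53inp1 had 177 and 163 CPM against 404 and 348 CPM, a log2 fold change of 1.18 ± 0.09 (SE; adjusted p = 0.000223, edgeR). The 3 genes that act back on p53 had fold changes that differed from those before DOX by less than their SE, and they passed in all 16 alternatives. In each of them replicate 1 of Hdac3-/- was the higher of the 2 samples, as at 0 hr.

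Sesn2 had 97.9 and 104 CPM against 138 and 131 CPM at 24 hr (log2 fold change 0.45 ± 0.09 SE, adjusted p = 0.0110, edgeR). Zmat3 had 180 and 175 CPM against 310 and 239 CPM (log2 fold change 0.67 ± 0.12 SE, adjusted p = 0.00938, edgeR). Phlda3 had 35.1 and 36.5 CPM against 55.3 and 48.7 CPM (log2 fold change 0.57 ± 0.12 SE, adjusted p = 0.0186, edgeR). In all 3 genes both clones were clearly above the parental duplicates. All 3 calls were lost when either Hdac3+/+ sample at 24 hr was left out (adjusted p from 0.0656 for Sesn2 without replicate 2 to 0.131 for Phlda3 without replicate 1), which left 3 of the 10 genes called, and Phlda3 was also lost without Hdac3-/- replicate 1 (adjusted p = 0.0712).

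Trp53 had 996 and 1037 CPM against 671 and 886 CPM at 24 hr. Its log2 fold change of -0.35 ± 0.14 (SE) did not pass (adjusted p = 0.149, edgeR). That of Trp53 was -0.58 without Hdac3-/- replicate 2 and -0.15 without Hdac3-/- replicate 1. Cdkn1a had 195 and 196 CPM against 236 and 247 CPM, a log2 fold change of 0.34 ± 0.12 (SE) that did not pass (adjusted p = 0.0873, edgeR). Neither gene's groups overlapped. Bbc3 had 13.2 and 11.4 CPM against 21.2 and 15.0 CPM, so that the clones differed from each other more than at 0 hr. Its log2 fold change of 0.59 ± 0.19 (SE) did not pass (adjusted p = 0.0745, edgeR). That of Bbc3 was 0.80 without Hdac3-/- replicate 2 and 0.33 without Hdac3-/- replicate 1. Bax had 61.6 and 50.4 CPM against 54.8 and 64.2 CPM, overlapping groups with a log2 fold change of 0.12 ± 0.14 (SE; adjusted p = 0.626, edgeR).

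**Figure D2:**
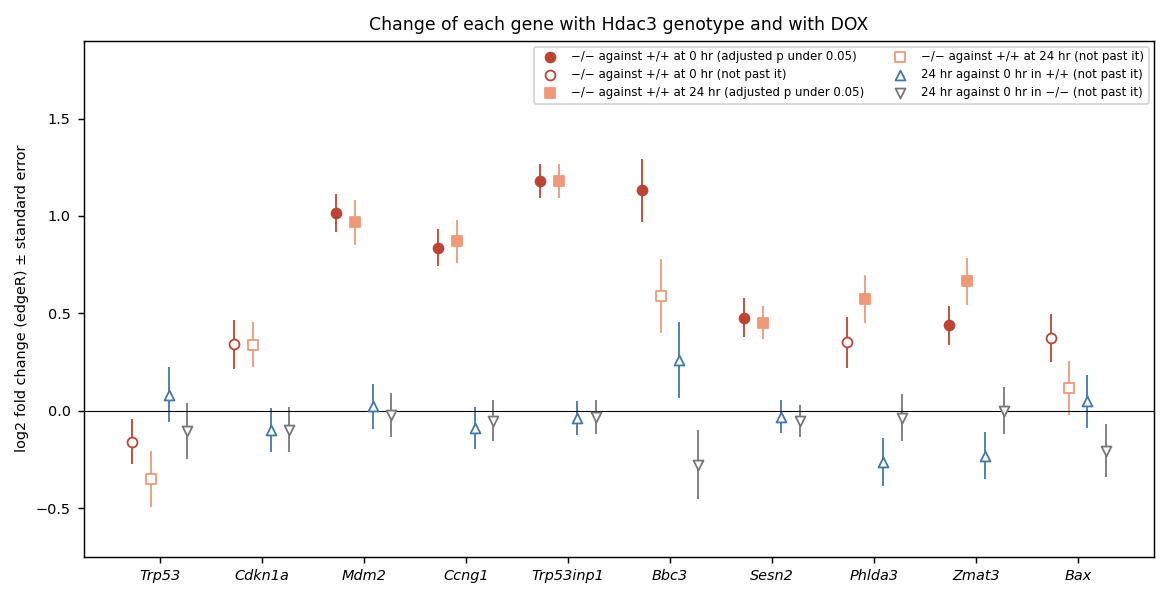
Log2 fold change of each gene with its standard error (vertical axis, edgeR) for Hdac3-/- against Hdac3+/+ at 0 hr and 24 hr and for 24 hr against 0 hr of DOX in each genotype; filled points passed an adjusted p of 0.05. The genotype contrasts reach 1.18 for Trp53inp1 at both times, while the DOX contrasts stay between -0.28 and 0.26 and none is filled.

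No change of the 10 genes with DOX, and with the Xist induction it brings, was detected. Almost no gene of any kind passed these tests, so the counts do not set the 10 genes apart. In Hdac3+/+ 0 of the 10 passed, and 0.21% of all 13807 genes did. Their log2 fold changes ran from -0.26 (Phlda3) to 0.26 (Bbc3). In Hdac3-/- 0 of the 10 passed, and 0.0217% of all genes did, with log2 fold changes from -0.28 (Bbc3) to 0.00 (Zmat3). Without Hdac3-/- replicate 1 at 24 hr the largest change of the 10 in either direction was 0.54. At an unadjusted p under 0.05 the counts were also 0 of 10 in both genotypes, where 7.18% of all genes in Hdac3+/+ and 1.93% in Hdac3-/- reached it. DESeq2 and limma with voom gave 0 of 10 as well. Phlda3 and Zmat3 had the lowest values in Hdac3+/+ (-0.26 ± 0.12 and -0.23 ± 0.12 SE, adjusted p = 0.737 and 0.798, edgeR), and Zmat3 passed only when replicates were blocked within genotype (-0.23, adjusted p = 0.000820). The interaction of genotype and time called 0 of the 10 genes and 0% of all genes (0 of 10 at an unadjusted p under 0.05, against 1.89% of all genes). The interaction was lowest for Bbc3, at -0.54 ± 0.26 (SE; adjusted p = 1, edgeR).

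Reads of each allele gave a second view of the same libraries. The reads of a gene that overlap B6 and Cast differences were scaled to the total reads of the library (RPM). At 0 hr both clones lay above both Hdac3+/+ samples on the B6 allele and also on the Cast allele for 6 of the 10 genes, and at 24 hr for 7. The share of all genes that met this rule on both alleles was not computed, so these counts only describe the 10 genes. On total CPM both clones lay above both Hdac3+/+ samples for 23.3% of all genes at 0 hr and 25.8% at 24 hr. Trp53inp1 rose from 27.6 ± 0.508 to 66.5 ± 3.69 RPM on the B6 allele and from 32.0 ± 0.651 to 63.5 ± 4.22 RPM on the Cast allele (SD, n = 2 each) at 0 hr, ratios of 2.41 and 1.98. Mdm2 had ratios of 1.9 on B6 and 2.1 on Cast, and Ccng1 1.74 and 1.73. Bbc3 had ratios of 3.00 and 2.62, from 10 and 11 allelic reads in the Hdac3+/+ samples and 46 and 26 in Hdac3-/-, so these are imprecise. Sesn2 had 1.37 and 1.15, and Zmat3 1.29 and 1.32. On Cast, Sesn2 had 35.6 ± 2.4 RPM in Hdac3+/+ and 41.1 ± 4.69 RPM in Hdac3-/- (SD, n = 2 each), a small difference beside these SDs. For the genes that passed on total reads at 0 hr, the mean was thus higher in Hdac3-/- on both alleles. For Trp53 both alleles were lower, at ratios of 0.789 on B6 and 0.903 on Cast.

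The d-scores were near an even split. Apart from Bbc3, whose d-score ran from 0.429 to 0.727 on 10 to 46 allelic reads, the values of the 9 other genes in the 8 samples ran from 0.396 to 0.588. Zmat3 was above 0.5 in every sample (0.541 to 0.581) and Trp53 below 0.5 in every sample (0.440 to 0.493). The log2 B6:Cast ratio differed between genotypes at 0 hr for 0 of the 10 genes by edgeR's quasi-likelihood test on allelic counts, where 0.667% of all 9595 genes did, and 3 of the 10 had an unadjusted p under 0.05 (Trp53, Trp53inp1 and Bax, chosen after their values were seen), which 8.55% of all genes had. Bax had the largest of these differences, -0.50 ± 0.23 (SE; adjusted p = 0.539, edgeR), with d-scores of 0.497 and 0.492 in Hdac3+/+ and 0.418 and 0.396 in Hdac3-/-. At 24 hr its d-scores in Hdac3-/- were 0.509 and 0.511. With DOX the ratio changed for 0 of the 10 genes in Hdac3+/+ (1.61% of all genes; at an unadjusted p under 0.05, 0 of 10 and 5.46% of all genes) and 0 in Hdac3-/- (0.406% of all genes; at an unadjusted p under 0.05, 1 of 10, Bax, and 4.36% of all genes). The interaction called 0 of the 10 and 0.208% of all genes (at an unadjusted p under 0.05, 0 of 10 and 4.53%). The counts by limma on the d-score were also 0 of 10 in all of these contrasts.

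**Figure D3:**
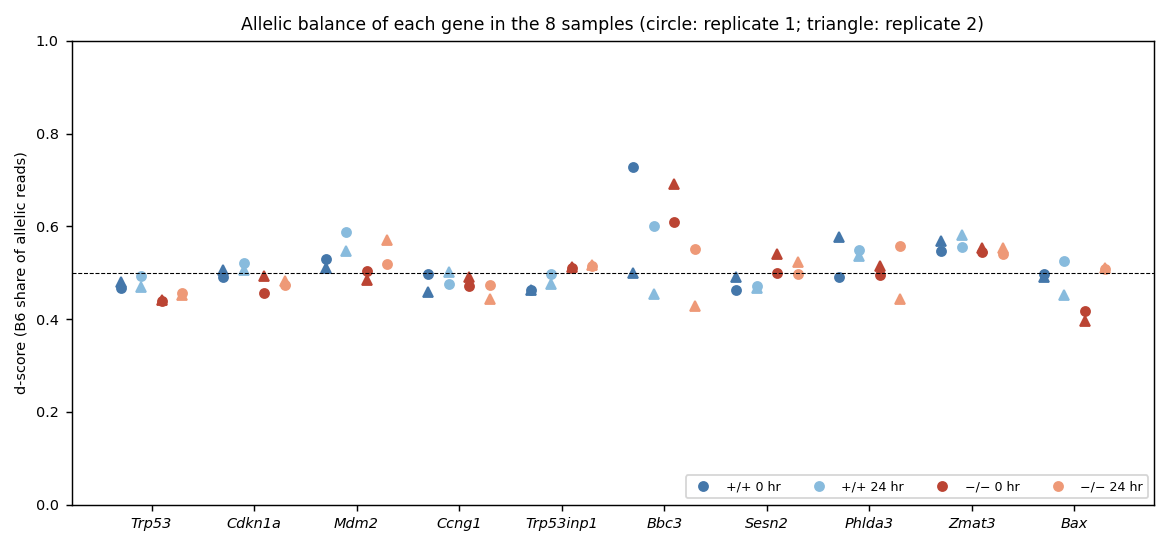
The d-score (B6 share of allelic reads, vertical axis from 0 to 1) of each gene in the 8 samples, coloured by group; the dashed line is an even split of 0.5. Apart from Bbc3, which had 10 to 46 allelic reads, all values lie between 0.396 and 0.588, and Bax is lowest in the 2 Hdac3-/- samples at 0 hr.

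Other genes of the pathway were counted from lists of textbook targets, chosen with earlier results of these data known. Of 33 further p53 targets tested at 0 hr, 11 rose and 1 fell in Hdac3-/-, with a median log2 fold change of 0.27 against 0.00 for all genes. Among all genes 6.33% rose and 7.24% fell. At 24 hr 11 rose and 2 fell, with a median of 0.31, where 6.16% of all genes rose and 6.78% fell. With DOX 0 of the 33 passed in either genotype, where 0.21% of all genes in Hdac3+/+ and 0.0217% in Hdac3-/- did.

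Of the 10 arrest genes, 5 rose and 1 fell at 0 hr, where 6.33% of all genes rose and 7.24% fell. Ptprv, a receptor-type phosphatase, rose from 9.96 ± 0.348 to 28.4 ± 4.03 CPM (SD, n = 2 each; log2 fold change 1.59, adjusted p = 0.00204, edgeR). Plk2, a polo-like kinase, rose from 19.0 ± 0.584 to 45.7 ± 2.06 CPM (log2 fold change 1.35, adjusted p = 0.00147, edgeR), and Btg2, an antiproliferative cofactor, from 17.8 ± 0.229 to 29.6 ± 3.91 CPM (log2 fold change 0.82, adjusted p = 0.0140, edgeR). Sfn, which encodes 14-3-3 sigma, fell from 10.9 ± 1.95 to 3.81 ± 1.42 CPM (log2 fold change -1.47, adjusted p = 0.0216, edgeR). Plk3 had 29.1 ± 3.58 and 32.9 ± 8.40 CPM and did not pass. At 24 hr the log2 fold changes were 1.52 for Ptprv, 1.41 for Plk2, 1.10 for Btg2 and -1.24 for Sfn, which passed again.

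Of the 11 apoptosis genes, 3 rose and 0 fell at 0 hr, where 6.33% of all genes rose and 7.24% fell. At 24 hr 6.16% of all genes rose and 6.78% fell. Pmaip1, which encodes the BH3-only protein Noxa, rose from 33.9 ± 2.79 to 86.5 ± 11.4 CPM (SD, n = 2 each; log2 fold change 1.43, adjusted p = 0.00112, edgeR). Apaf1, the core of the apoptosome, rose from 37.9 ± 2.55 to 55.8 ± 3.94 CPM, and Pidd1, a death domain protein, from 35.8 ± 0.389 to 50.1 ± 3.25 CPM (SD, n = 2 each). Ei24 had 102 ± 3.59 and 103 ± 7.23 CPM and did not pass. At 24 hr Pmaip1, Apaf1 and Pidd1 were again higher (log2 fold changes of 1.64, 0.67 and 0.55) and 1 gene was lower, Bid, a BH3-only protein, at 78.5 ± 1.88 in Hdac3+/+ and 53.9 ± 2.48 CPM in Hdac3-/- (SD, n = 2 each).

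Of the 12 repair and metabolism genes, 3 rose and 0 fell at 0 hr, where 6.33% of all genes rose and 7.24% fell. Ddit4, an inhibitor of mTORC1, rose from 34.8 ± 7.42 to 74.1 ± 0.405 CPM (SD, n = 2 each; log2 fold change 1.17, adjusted p = 0.00325, edgeR). Ercc5, a nuclease of excision repair, rose from 19.2 ± 0.777 to 27.8 ± 2.62 CPM, and Slc19a2, a thiamine transporter, from 64.2 ± 3.14 to 83.5 ± 4.44 CPM (SD, n = 2 each). Tigar had 77.9 ± 0.445 and 75.9 ± 9.37 CPM and did not pass. At 24 hr 4 rose and 0 fell, where 6.16% of all genes rose and 6.78% fell. The log2 fold changes were 1.56 for Ddit4, 0.96 for Rrm2b, a subunit of ribonucleotide reductase, and 0.75 for Ercc5.

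Of 16 regulators of p53 listed, 15 were tested at 0 hr, 1 rose and 0 fell, with a median log2 fold change of 0.07. This share was near that of all genes (6.33% higher). The gene was Sirt1, a deacetylase that acts on p53, at 76.9 ± 3.36 and 113 ± 20.1 CPM (SD, n = 2 each; log2 fold change 0.63, adjusted p = 0.0238, edgeR). Usp7, a deubiquitinase of Mdm2 and p53, had 893 ± 18.7 and 774 ± 144 CPM and did not pass. At 24 hr 1 of the 15 rose, 1 fell and 13 did not pass, again near the shares of all genes (6.16% higher and 6.78% lower). Mdm4, the partner of Mdm2, rose from 231 ± 5.88 to 282 ± 18 CPM and Pml fell from 356 ± 5.56 to 285 ± 13.3 CPM (SD, n = 2 each). Of the other family members, Trp73 rose from 20.7 ± 3.78 to 38.4 ± 8.11 CPM at 0 hr (SD, n = 2 each; log2 fold change 0.97, adjusted p = 0.0152, edgeR; 1.24 at 24 hr), and Trp63 had at most 8 reads in a library and was not tested.

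Of 15 cell cycle genes that p53 and p21 are known to lower, 1 rose and 1 fell at 0 hr, with a median log2 fold change of -0.12. These shares were near those of all genes (6.33% higher and 7.24% lower). Kif20a, a mitotic kinesin, had 240 ± 9.60 and 306 ± 39.1 CPM, and Mki67, the proliferation marker, 860 ± 18.7 and 540 ± 29.3 CPM (SD, n = 2 each). Top2a had 380 ± 24.5 and 423 ± 33.3 CPM and did not pass. At 24 hr 0 rose and 4 fell, with a median of -0.20, where 6.78% of all genes fell. Plk1, a mitotic kinase, was the most abundant of the 3 with the largest falls, at 218 ± 7.21 and 161 ± 4.71 CPM, and Ccnb2 and Aurkb fell by 0.41 and 0.40 on the log2 scale. Of the 10 ATF4 targets, which share Sesn2's other known activator, 9 were tested at 0 hr and 3 rose with 0 lower (median log2 fold change 0.33). Among all genes 6.33% rose and 7.24% fell at 0 hr, and 6.16% rose and 6.78% fell at 24 hr. Ddit3, which encodes Chop, rose from 6.86 ± 2.06 to 15.5 ± 5.50 CPM and Chac1 from 20.5 ± 2.99 to 33.6 ± 3.93 CPM (SD, n = 2 each). Asns, asparagine synthetase, rose from 612 ± 23.0 to 854 ± 24.8 CPM (SD, n = 2 each), and Psat1 had 366 ± 21.2 and 391 ± 2.11 CPM and did not pass. At 24 hr 4 of the 9 rose, among them Atf3 from 2.61 ± 0.0277 to 6.51 ± 1.25 CPM (SD, n = 2 each), Chac1 and Asns (log2 fold changes of 1.35, 1.04 and 0.45). The part of ATF4 or of cell cycle differences in the values of the 10 genes was not tested.

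**Figure D4:**
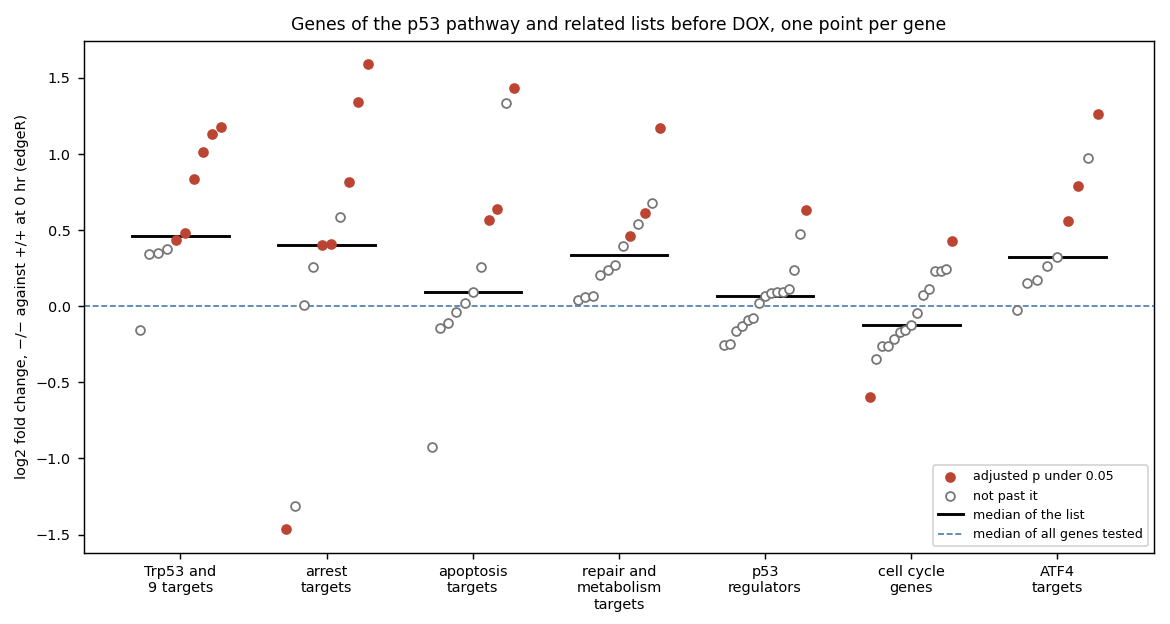
Log2 fold change of Hdac3-/- against Hdac3+/+ at 0 hr (vertical axis, edgeR), one point per gene, for Trp53 and its 9 targets and for 6 other lists; red points passed an adjusted p of 0.05, black bars are list medians and the dashed line is the median of all genes. The medians are 0.46 for the 10 genes, 0.41 for arrest targets and -0.12 for the cell cycle genes.

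Trp53inp1 had the widest range of the set over the 8 samples, 1.33 on the log2 CPM scale. Of 10162 genes with a mean count of at least 50, those most like it by Pearson's r of log2 CPM over the 8 samples were Fbxl20 (0.995), Ptpn14, Ptprv, Mdm2 and Zfp365 (0.994 each). All 5 separate the genotypes in every sample, which follows from their choice by r with Trp53inp1, whose values also split by genotype. Fbxl20, for example, had 8.52 to 9.92 CPM in the 4 Hdac3+/+ samples and 22.1 to 26.9 CPM in the 4 Hdac3-/- samples. Among the set, r with Trp53inp1 was 0.987 for Ccng1, 0.981 for Sesn2, 0.934 for Bbc3, 0.930 for Zmat3, 0.902 for Phlda3, 0.839 for Cdkn1a, 0.669 for Bax and -0.727 for Trp53. Ranked by r among all genes compared, Ccng1 was at 29, Sesn2 at 71, Bbc3 at 479 and Zmat3 at 513. Phlda3 was at 756, Cdkn1a at 1251, Bax at 2372 and Trp53 at 8078. The 8 samples share 2 genotypes, and the values mainly describe the gap between them.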

How the data were processed

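RNA-seq of 8 samples was deposited as one table per sample with total counts, B6 and Cast counts and a d-score for each gene symbol. The authors removed rRNA reads, mapped with TopHat2 2.1.0 and counted exons by strand with featureCounts 1.5.1, and the submitters' processing notes name mm10. The deposited counts are not normalized. The deposited d-score is the fraction of B6 among allelic reads, given where a gene had 10 or more of them.

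Computed here were CPM, TPM (GENCODE M21 exon lengths matched by symbol; 660 symbols had no match) and edgeR 4.0.16 quasi-likelihood tests (R 4.3.3) with TMM and Benjamini-Hochberg adjustment over the genes that exceeded 1 TPM in 2 or more samples. Hdac3-/- was compared with Hdac3+/+ at 0 hr in a fit of 4 samples, and the other contrasts were taken from a fit of 8 samples. The log2 B6:Cast ratio was tested with edgeR on allelic counts with sample effects, for the 9595 genes whose d-score was given in all 8 samples. Scripts were tested on simulated data. Total counts of 6940375 to 17125156 reads set the precision, and duplicates differed by more than sampling noise (chi-square per degree of freedom 3.07 to 9.72). Alternatives used DESeq2 1.42.0, limma 3.58.1, other scaling, no filter, replicate blocks and leaving out each sample. Python 3.11.15, pandas 2.3.3, numpy 2.4.6 and matplotlib 3.10.9 were used.

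The 10 genes and the other lists were chosen with earlier results of these data known. The text names all 10 genes, from each other list up to 3 genes per direction with the largest change past the threshold and, at 0 hr, 1 gene that did not pass (where one was tested), Hdac3 and Xist as checks of the labels, and the 5 genes most like the gene with the widest range. Promoter sequences are from RefSeq (GRCm38.p6), and no protein sequences were used here.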

Additional observations from a re-analysis of the deposited data

Results flagged for a closer look

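Bbc3 met the rule for effects of opposite direction in the 2 genotypes. With DOX both Hdac3+/+ samples at 24 hr (13.2 and 11.4 CPM) lay above both at 0 hr (10.2 and 10.6 CPM), and both Hdac3-/- samples at 24 hr (21.2 and 15.0 CPM) lay below both at 0 hr (21.8 and 21.3 CPM). The difference itself, tested as the interaction of genotype and time with edgeR's quasi-likelihood test, was -0.54 ± 0.26 on the log2 scale (SE; adjusted p = 1) and did not pass. The counts behind it were 79 to 374 reads per sample. In Hdac3-/- the higher sample at 24 hr lay only just below the lower sample at 0 hr (21.18 against 21.32 CPM). The share of all genes that met this rule was not computed, so the flag only describes these values.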

How the results depend on the processing

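With 2 samples a group, the counts of calls moved more than the fold changes of the 10 genes. Leaving out a single sample (the lone sample of a group is then assumed to vary like the others) gave 4 to 8 of the 10 called at 0 hr and 3 to 8 at 24 hr, against 6 and 6, and 0 to 0 in each of the DOX, interaction and allelic contrasts. Requiring a log2 change above 1 left 3 at 0 hr and 1 at 24 hr. The direction was kept in every alternative for 9 of the 10 genes at both times, and for Bax at 24 hr its log2 fold change ran from -0.018 (without Hdac3+/+ replicate 2) to 0.27 when a sample was left out, with -0.013 without Hdac3-/- replicate 2.

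Over all genes, calls at 0 hr were 1795, and 3107 without a filter, 819 with a log2 change above 1 and 602 to 3393 leaving out a sample; at 24 hr they were 1786, 2939 without a filter and 449 to 1992. For DOX in Hdac3+/+ they were 29, against 115 with DESeq2, 12 with voom, 275 without a filter, 58 without chromosome 16 (chosen after seeing the data) and 2 to 85 leaving out a sample. For DOX in Hdac3-/- they were 3, against 15 with DESeq2, 36 without a filter and 2 to 2 leaving out a sample. The interaction had 0, against 1 with DESeq2, 6 without a filter and 0 to 0 leaving out a sample. For the allelic ratio the counts were 64 between genotypes (1 by limma on the d-score, 12 to 121), 154 for DOX in Hdac3+/+ (93, 83 to 158), 39 in Hdac3-/- (1, 27 to 45) and 20 for the interaction (0, 3 to 21).

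The replicate numbers are given in the labels, but the labels do not say what same-numbered samples share. The correlation of their deviations was 0.212 to 0.341 between other groups and 0.705 between the Hdac3-/- groups, whose chromosome 16 d-scores were also alike within a number at 0 and 24 hr (median 0.333 and 0.333 in replicate 1, 0.5 and 0.493 in replicate 2), a hint from the data that a number there marks a clone. With a replicate block the calls over all genes were 2944 at 0 hr, 3379 at 24 hr, 190 for DOX in Hdac3+/+, 13 in Hdac3-/-, 109 for the allelic ratio at 0 hr and 31 for its interaction. With the replicate block within genotype they were 1531, 281 and 289 for both DOX contrasts and the interaction, and 1 of the 10 genes (Zmat3) passed in Hdac3+/+ and 0 in Hdac3-/-. With the block Cdkn1a and Bax also passed at 0 hr, and Cdkn1a, Bbc3 and Trp53 (lower) at 24 hr. The cause of these shifts was not tested.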
